A study of Mus musculus with 16 samples.

Results

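The enzymes and regulators that make cholesterol and fatty acids were followed in Hepa1-6 cells, a mouse hepatoma line, and in clones of it that lack exon 5 of Eef1d, the gene of a subunit of the translation elongation factor complex eEF1B. A fixed list of 32 genes was looked up by symbol among the 22392 genes of the count table, and all 32 were found, 21 in the sterol branch and 11 in the fatty acid branch. Each gene was represented by its transcript with the largest sum of counts over all libraries. RNA-seq and ribosome profiling (Ribo-seq) were done on the same lysates of WT cells and of the clones KO1, KO2 and KO3, with 2 replicates per line and assay, which gave 16 libraries. Hepa1-6 cells were grown in medium with serum, a source of lipids. Each clone came from a single cell, KO1 and KO2 with the guide pair S1 and S4 and KO3 with S2 and S4, and the WT cells were not described as cloned. A difference between a clone and WT cells therefore cannot be told apart from a difference between single-cell clones. The comparisons asked how the RNA, the ribosome footprints and the translation efficiency (TE, footprints relative to RNA) of these genes stood in each clone against WT cells, and whether the clones differed from each other.

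Cholesterol is built from acetyl-CoA through mevalonate, squalene and lanosterol, and fatty acids from the same acetyl-CoA through malonyl-CoA, with later elongation and desaturation. Both branches are driven by the SREBP transcription factors, which are made as membrane proteins of the endoplasmic reticulum, are held there by INSIG proteins when sterols are plentiful, and are cleaved in the Golgi when sterols are scarce. SREBP-2, encoded by Srebf2, acts mainly on sterol genes and SREBP-1, encoded by Srebf1, mainly on fatty acid genes, and the liver is a main site of both pathways.

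SREBPs bind sterol regulatory elements beside GC boxes or inverted CCAAT boxes, which bind the factors SP1 and NF-Y, so these motifs were searched in RefSeq promoter windows of GRCm38.p6, from 250 bases before to 50 bases after each transcription start. Windows were found for 25 of the 32 genes, 17 sterol and 8 fatty acid genes. Some genes have several windows, and a gene was counted when any of them held the motif. The element TCACNCCAC, read on both strands, was in 1 of the 17 sterol genes, Hmgcs1, and in none of the 8 fatty acid genes. It was in 1.24% of all windows and in 1.36% of the genes tested for RNA in KO1 that have a window. The inverted CCAAT box ATTGG, read on both strands, was in 16 of the 17 sterol genes and in 5 of the 8 fatty acid genes, against 43.8% of the genes that were tested for RNA in KO1 and have a window. The GC box GGGCGG, read on both strands, was also in 16 of 17 and in 5 of 8, against 69.7% of those genes. The E-box CACGTG was in 4 sterol genes, Hsd17b7, Insig1, Dhcr7 and Sc5d, in none of the fatty acid genes and in 1080 of the 8996 genes tested that have a window. The E-box of Dhcr7 and the inverted CCAAT box of Pmvk lay only in windows other than the one nearest the start of the counted transcript. None of these letter strings contains another. These are matches of letters in a short window and say nothing of binding. The window of Hmgcs1 is shown because it alone held the sterol element. It lies at chr13:119690101-119690350 on the plus strand, the 250 bases before the RefSeq start, the element begins 137 bases before that start, and the counted transcript starts at 119690446. The sterol regulatory element is in capitals.
Hmgcs1: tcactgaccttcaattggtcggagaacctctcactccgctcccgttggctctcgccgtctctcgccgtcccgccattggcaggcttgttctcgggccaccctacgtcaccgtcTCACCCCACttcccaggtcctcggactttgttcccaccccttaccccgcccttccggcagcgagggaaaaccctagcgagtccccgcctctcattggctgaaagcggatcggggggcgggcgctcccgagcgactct

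Summed over 1 transcript per gene, RNA-seq libraries held 10493028 to 12946823 counts and Ribo-seq libraries 1138943 to 4886754, and the smallest and the largest Ribo-seq library were the KO1 replicates. The count listed for an Eef1d transcript model that holds exon 5 was 116% of that listed for a model without it in both WT RNA-seq libraries and from 89.8% to 92.6% in the clones. The models share coding sequence, so these counts are not levels of the isoforms. All 10 hepatocyte markers fixed for the check were found in WT cells, with a summed RNA level of 4236 to 4362 CPM (counts scaled to the size of the library). That sum was 1034 to 1046 in KO1, 3766 to 3798 in KO2, where Ttr was at 0, and 5517 to 6069 in KO3, where Serpina1a was at 0. Of the 7 with enough counts to test, 6 were lower in KO1 and 4 in KO2 (edgeR, adjusted p under 0.05). In KO3, 4 were higher and 3 lower, so they did not all move with the sum. The shares over all genes were 24.6% and 8.86% lower in KO1 and KO2, and 23.1% higher and 22.3% lower in KO3. Markers of endothelial cells summed to at most 2.29 CPM and those of immune cells to at most 22.2 CPM in RNA-seq, with Adgre1 at 0 in every line. Cholangiocyte markers summed to 139 to 156 CPM in WT cells, 80.9 to 86.2 in KO1, 239 in KO2, with KO3 at 443 to 464. Among them Krt7 changed most, with log2 RNA changes of -2.88, 1.42 and 2.64 in KO1, KO2 and KO3. Sox9 was called lower in KO1 and higher in KO3, and Epcam higher in KO3 alone. Krt19 had too few counts to test in any clone. Fibroblast markers summed to 712 to 1078 CPM in RNA-seq, with Col1a2 or Lum at 0 in every line. Of the 6 markers, only Dcn was measured closely, with an SE of its RNA change in KO1 of 0.043, against 0.44 for Col1a1 and 0.20 for Pdgfra. Col3a1 had enough counts to test only in KO3, and Col1a2 and Lum in no clone. The sum therefore does not show all 6 markers at such levels. In bulk libraries, fewer cells of a type and less RNA per cell cannot be told apart.

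Per coding length, the genes covered a wide range of RNA in WT cells. On the scale of counts per codon, normalised to the same sum in each library as for TPM, Scd2 was highest with a WT mean of 454, followed by Me1 with 163, Fdps with 153, Sqle with 121, Scd1 with 119 and Fasn with 113. In that order the WT libraries of Me1, at 166 and 159.5, and Fdps, at 145 and 161, overlapped, and so did those of Sqle, at 111 and 132, with Scd1 and Fasn. The lowest were Tm7sf2 with 3.43 and Acss2 with 1.64, so these genes were counted on few reads, and Acss2 had RNA CPM of 4.55 and 2.72 in WT cells. The Scd1 and Scd2 proteins are closely similar, as are Acat2 and its neighbour Acat3. Only uniquely mapped reads were assigned, so counts of these genes may miss shared stretches and are less certain.

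The regulators did not move alike. Levels are given as CPM scaled by TMM factors within each assay, for replicates 1 and 2 of a line in that order. Srebf2 (chromosome 15, 82147181 to 82205379, plus strand) had RNA levels of 339 and 350.3 CPM in WT cells, 199 and 212 in KO1, 383 and 419 in KO2, with KO3 at 349 and 359. Both KO1 libraries were below and both KO2 libraries above WT, and KO3 overlapped WT. Its RNA fell by 0.75 on the log2 scale in KO1 (SE 0.053, adjusted p = 1.69e-17) and rose by 0.22 in KO2 (SE 0.056, adjusted p = 0.00584), although without WT replicate 1 the adjusted p in KO2 was 0.11. Srebf1 (chromosome 11, 60199089 to 60220604, minus strand) stood at 189 and 190.3 CPM in WT cells, 195 and 200.1 in KO1, 192 and 197 in KO2, with KO3 at 157 and 164. KO3 alone was below WT, with a fall of 0.25 (SE 0.061, adjusted p = 0.000447). In KO1 the log2 change of Srebf1 was 0.06 (adjusted p = 0.426). Insig1 (chromosome 5, 28071363 to 28078662, plus strand), the sterol-responsive retention protein of SREBP, was at 22.2 and 19.5 CPM in WT cells, 11.2 and 10.6 in KO1, 20.8 and 25.7 in KO2, with KO3 at 15.7 and 12.05. KO1 and KO3 were below WT in every library, and Insig1 RNA fell by 0.93 in KO1 (SE 0.15, adjusted p = 8.3e-07) and by 0.59 in KO3 (SE 0.15, adjusted p = 0.000568).

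**Figure D1:**
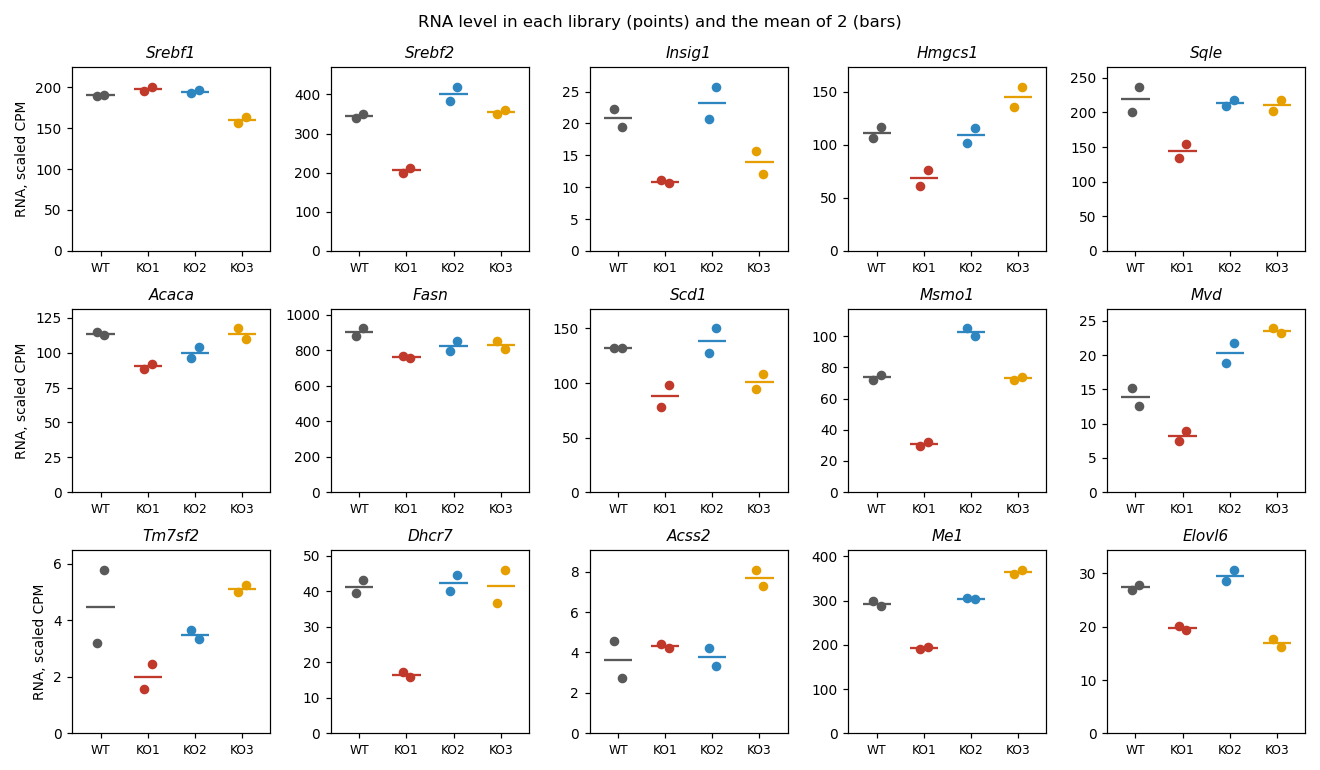
RNA level (TMM-scaled CPM, linear axes from 0) of 15 of the genes in each of the 8 RNA-seq libraries; points are single libraries, bars the mean of 2 replicates, and colours the lines. For Srebf2, Msmo1 and Dhcr7 the KO1 points lie apart below the other lines, while Srebf1 is lower in KO3, at 157 and 164 CPM.

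In KO1, 27 of the 32 genes had lower RNA than WT cells at an adjusted p under 0.05 and none higher, where 24.6% of the 11515 genes tested were lower and 22.1% higher. Their median log2 change was -0.55, against 0.00 for all genes tested. The 5 not called were Pmvk (-0.27), Cyp51 (-0.16), Ebp (-0.19), Srebf1 (0.06) and Acss2 (0.26). Of the 7 hepatocyte markers tested, 6 also fell in KO1, with a median of -1.51, and their part in the fall of the lipid genes was not tested.

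In KO2, 4 genes had higher RNA, where 11.6% of 11477 genes were higher, and none was called lower, where 8.86% were lower. They were Mvd, Msmo1, Fdps and Srebf2. With upper quartile factors in place of TMM, 4 were called higher and 3 lower. The median log2 change of the 32 genes was 0.05. In KO3, 8 genes were called higher, where 23.1% of 11435 genes were higher, and 9 lower, where 22.3% were lower. The median over the 32 genes was 0.01, with values from -0.69 for Elovl6 to 1.09 for Acss2. The shares called higher in KO2 and KO3 and lower in KO3 are near those over all genes.

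Among the 7 enzymes of the mevalonate steps, from acetyl-CoA to farnesyl diphosphate, 6 fell in KO1, 2 rose in KO2 and 4 rose in KO3, where 24.6%, 11.6% and 23.1% of all genes did. Both KO2 calls, Mvd and Fdps, were lost without 1 of the WT libraries. Hmgcs1 (chromosome 13, 119690446 to 119708082, plus strand), the HMG-CoA synthase whose promoter is printed above, was at 106 and 117 CPM in WT cells, 61.1 and 75.8 in KO1, 102 and 116 in KO2, with KO3 at 136 and 154. KO1 lay below and KO3 above WT in every library. Its RNA fell by 0.71 in KO1 (SE 0.079, adjusted p = 7.43e-11) and rose by 0.38 in KO3 (SE 0.068, adjusted p = 2.71e-06), and in KO2 the change was -0.03 (adjusted p = 0.843). Mvd, mevalonate diphosphate decarboxylase, was at 15.2 and 12.6 CPM in WT cells, 7.45 and 8.92 in KO1, 18.8 and 21.7 in KO2, with KO3 at 23.9 and 23.2. No clone library of Mvd overlapped WT, with a fall of 0.76 in KO1 and rises of 0.55 in KO2 and 0.76 in KO3 (adjusted p = 0.000365, 0.00872 and 3.61e-06). The rise of Mvd in KO2 was not called without WT replicate 2 (adjusted p = 0.132), without KO2 replicate 2 (0.0557) or by DESeq2 (0.0598). Fdps, farnesyl diphosphate synthase, fell by 0.87 in KO1 and rose by 0.28 in KO2 and 0.38 in KO3, and its KO2 call was lost without WT replicate 1 (adjusted p = 0.12). Pmvk, phosphomevalonate kinase, rose by 0.82 in KO3. Idi1, the isopentenyl diphosphate isomerase, fell by 0.82 in KO1, as did Acat2, the cytosolic thiolase, by 0.51. Mvk, mevalonate kinase, fell by 0.42 in KO1, a call that was lost when any library other than KO1 replicate 1 was left out (adjusted p from 0.0548 to 0.0972) and by DESeq2 (adjusted p = 0.117).

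The 3 enzymes from squalene to lanosterol all fell in KO1, where 24.6% of all genes fell. Sqle, squalene epoxidase and a rate-limiting step of the branch, was at 201 and 237 CPM in WT cells, 134 and 154 in KO1, 209.5 and 218 in KO2, with KO3 at 203 and 218. KO1 alone was below WT, by 0.60 on the log2 scale (SE 0.066, adjusted p = 3.39e-11), and KO2 and KO3 lay inside the range of WT. Fdft1, squalene synthase, fell by 0.92 in KO1. Lss, lanosterol synthase, fell by 0.38 in KO1, where the call was lost without KO1 replicate 1 (adjusted p = 0.118), and rose by 0.25 in KO3, where it was lost without WT replicate 1 (0.207), without KO3 replicate 2 (0.271) and by DESeq2 (0.115).

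The largest falls of the list in KO1 lay among the 8 enzymes between lanosterol and cholesterol. Of these enzymes, 6 fell, where 24.6% of all genes fell. Dhcr7, which catalyses the last step from 7-dehydrocholesterol, was at 39.6 and 43.2 CPM in WT cells, 17.3 and 15.8 in KO1, 40.1 and 44.6 in KO2, with KO3 at 36.7 and 46.1. Its KO1 libraries were well below all others, with a fall of 1.32 (SE 0.12, adjusted p = 3.33e-14), and the log2 changes in KO2 and KO3 were 0.04 and -0.0012, neither of them called. Msmo1 (chromosome 8, 64718139 to 64733792, minus strand), the sterol C4 methyl oxidase, was at 72.2 and 75.1 CPM in WT cells, 29.3 and 32.5 in KO1, 105 and 100.3 in KO2, with KO3 at 71.9 and 74.0. It fell by 1.26 in KO1 (SE 0.090, adjusted p = 2.33e-17) and rose by 0.48 in KO2 (SE 0.076, adjusted p = 6.24e-05), and KO3 overlapped WT. Tm7sf2, a sterol C14 reductase, was low, at 3.18 and 5.79 CPM in WT cells, 1.56 and 2.44 in KO1, 3.65 and 3.34 in KO2, with KO3 at 5.00 and 5.24. Its fall of 1.18 in KO1 (SE 0.34, adjusted p = 0.0032) was lost without WT replicate 2 (adjusted p = 0.259), without KO1 replicate 1 (0.0701) and by DESeq2 (0.0552). Sc5d, the sterol C5 desaturase, fell by 1.08 in KO1 and 0.47 in KO3. Nsdhl and Hsd17b7, which act with Msmo1 on the C4 methyl groups, fell by 0.86 and 0.83 in KO1. Hsd17b7 rose by 0.35 in KO3, a call that was lost when any library other than KO3 replicate 1 was left out (adjusted p from 0.0794 to 0.232) and by DESeq2 (0.146).

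Cyp51, the lanosterol demethylase that opens this stretch, had its lowest values in another clone. Its RNA fell by 0.55 in KO3 (SE 0.088, adjusted p = 1.33e-07), with log2 changes of -0.16 in KO1 and -0.16 in KO2, neither of them called. Ebp, the sterol isomerase, was called in no clone, with changes of -0.19, -0.25 and -0.03 in KO1, KO2 and KO3. Stard4, a soluble carrier of cholesterol, fell by 0.28 in KO1 at an adjusted p of 0.0445, a call that was lost without WT replicate 1 (adjusted p = 0.352), without either KO1 replicate (0.153 and 0.0675) and by DESeq2 (0.204).

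In the fatty acid branch, 9 of 11 genes fell in KO1, where 24.6% of all genes fell, and none was called in KO2. In KO3 2 rose and 6 fell, where 23.1% and 22.3% of all genes did. Without KO2 replicate 2, however, Fasn, Acaca and Acly were called lower in KO2 (adjusted p = 0.00159, 0.0307 and 0.00281). Fasn (chromosome 11, 120805846 to 120824547, minus strand), fatty acid synthase, was at 881 and 923 CPM in WT cells, 765 and 758 in KO1, 793 and 852 in KO2, with KO3 at 850.3 and 807. All clone libraries were below both WT libraries, yet by little. Fasn RNA fell by 0.24 in KO1 (SE 0.042, adjusted p = 2.67e-06) and by 0.12 in KO3 (SE 0.044, adjusted p = 0.018), with -0.13 in KO2 (adjusted p = 0.0629). The KO3 call was lost without WT replicate 2 (adjusted p = 0.283) or KO3 replicate 2 (0.131). Acaca, acetyl-CoA carboxylase, which makes malonyl-CoA, was at 115 and 113 CPM in WT cells, 88.7 and 91.9 in KO1, 96.3 and 104 in KO2, with KO3 at 117 and 109.8. It fell by 0.33 in KO1 (SE 0.069, adjusted p = 6.08e-05), and KO2, although below WT in both libraries, was not called at -0.18 (adjusted p = 0.0764).

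Of the 3 enzymes that supply acetyl-CoA and NADPH, 2 fell in KO1 and 2 rose in KO3. Over all genes, 24.6% fell in KO1 and 23.1% rose in KO3. Me1, malic enzyme, was at 299 and 287 CPM in WT cells, 191 and 194 in KO1, 305 and 303 in KO2, with KO3 at 360.4 and 369.6. It fell by 0.61 in KO1 (SE 0.054, adjusted p = 6.05e-14) and rose by 0.32 in KO3 (SE 0.053, adjusted p = 4.04e-07), with no overlap with WT in either. Acss2 (chromosome 2, 155517948 to 155562746, plus strand), the cytosolic acetyl-CoA synthetase, was at 4.55 and 2.72 CPM in WT cells, 4.42 and 4.23 in KO1, 4.21 and 3.34 in KO2, with KO3 at 8.09 and 7.29. Only KO3 lay outside WT, with a rise of 1.09 (SE 0.24, adjusted p = 0.000122). Acly, ATP citrate lyase, fell by 0.25 in KO1, and in KO3 its change was 0.07 (adjusted p = 0.279).

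The genes of elongation and desaturation fell in KO1, 5 of 5, and 4 of the 5 fell in KO3, where 24.6% and 22.3% of all genes fell, and 2 of the KO3 calls did not hold without 1 library. Scd1 (chromosome 19, 44394455 to 44407709, minus strand), the main stearoyl-CoA desaturase of liver, was at 132 and 132 CPM in WT cells, 78.2 and 97.8 in KO1, 128 and 150.1 in KO2, with KO3 at 94.5 and 108. KO1 and KO3 were below WT, by 0.59 (SE 0.074, adjusted p = 2.33e-09) and 0.38 (SE 0.069, adjusted p = 2.54e-06), and KO2 lay on both sides of WT. Elovl6, which elongates palmitate, was at 26.9 and 27.8 CPM in WT cells, 20.2 and 19.3 in KO1, 28.5 and 30.7 in KO2, with KO3 at 17.8 and 16.2. Elovl6 fell by 0.47 in KO1 (SE 0.12, adjusted p = 0.00124) and by 0.69 in KO3 (SE 0.13, adjusted p = 4.57e-06). Scd2, another stearoyl-CoA desaturase, and Fads1 and Fads2, the desaturases of polyunsaturated fatty acids, fell by 0.40, 0.48 and 0.39 in KO1. In KO3 Scd2 fell by 0.16 and Fads1 by 0.19, and both calls were lost without WT replicate 2 (adjusted p = 0.102 and 0.174), without KO3 replicate 1 (0.594 and 0.244) and by DESeq2 (0.349 and 0.109), that of Fads1 also without WT replicate 1 (0.0945).

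**Figure D2:**
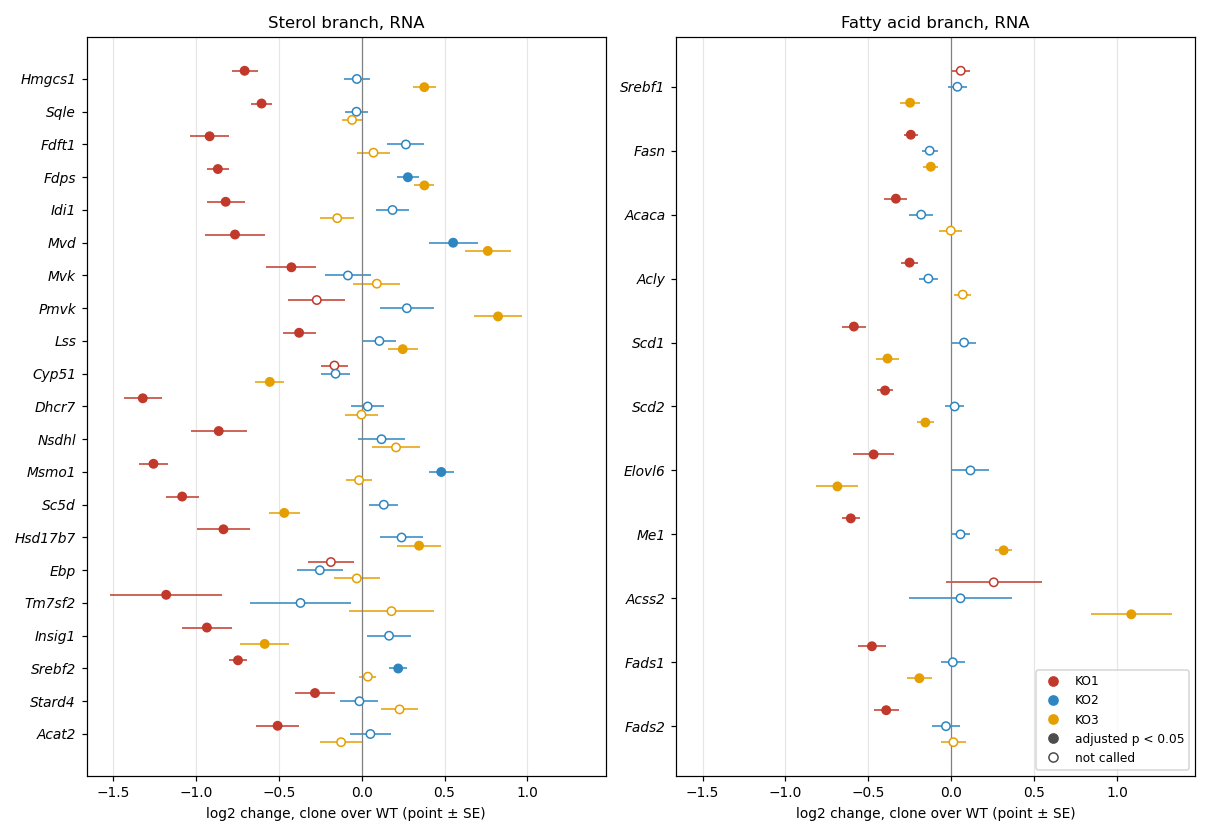
RNA change of each of the 32 genes in each clone (log2, clone over WT), with the sterol branch on the left and the fatty acid branch on the right. Points are shown ± SE, derived from the F test of the edgeR fit of 2 against 2 libraries. Filled points have an adjusted p under 0.05. The KO1 points lie to the left of 0 for all genes but Srebf1 and Acss2, down to -1.32 for Dhcr7, and the KO2 points lie between -0.37 and 0.55.

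The branches were set side by side by their medians, as a description without a test. In KO1 the median log2 RNA change was -0.76 over the 21 sterol genes and -0.39 over the 11 fatty acid genes, a difference of -0.37. Per library, measured from the WT mean, the difference was -0.42 and -0.39 in KO1 and -0.06 and 0.06 in WT cells. In KO3 the medians were 0.07 and -0.12, and the difference of 0.19 had the opposite sign, with 0.18 and 0.15 in its libraries. In KO2 they were 0.12 and 0.02, and the libraries, at 0.05 and 0.08, overlapped WT. The sterol median stood below the fatty acid median in both KO1 libraries and above it in both KO3 libraries, although without WT replicate 1 the KO3 difference was 0.11.

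**Figure D3:**
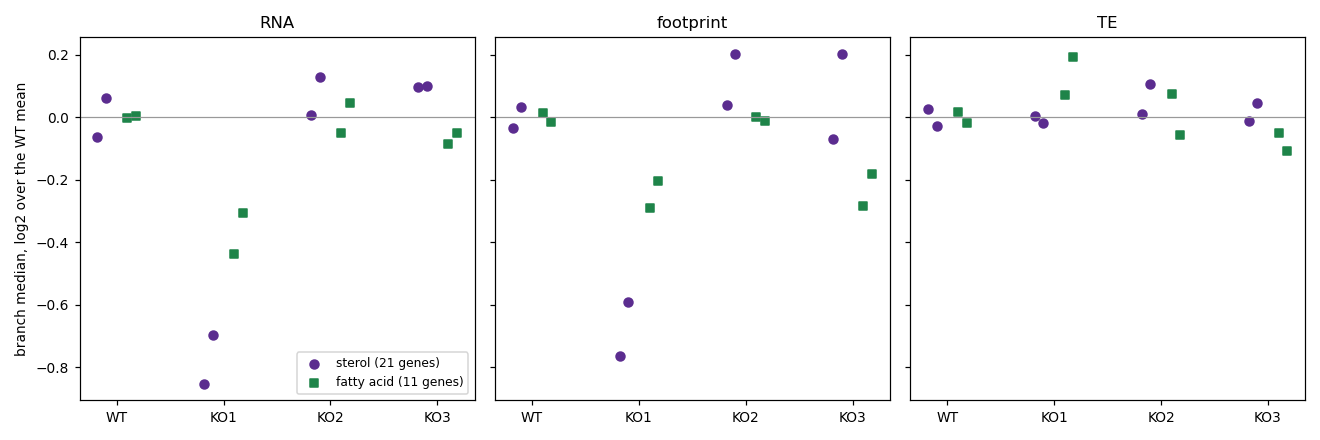
Median over the 21 sterol genes (circles) and the 11 fatty acid genes (squares) of the log2 level over the WT mean, for each library in RNA-seq and Ribo-seq and each lysate in TE. In RNA and footprints the KO1 sterol medians are the lowest, at -0.85 and -0.70 for RNA, and in TE all points lie within 0.2 of 0.

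Whether the clones differed from each other was tested for each gene in 1 fit of the 8 libraries of an assay. For RNA, the changes of the 3 clones were not equal for 30 of the 32 genes, where the same held for 74.0% of the 11756 genes tested. The genes not called were Ebp (adjusted p = 0.299) and Fasn (adjusted p = 0.0522). The spread between the highest and the lowest clone was 1.74 on the log2 scale for Msmo1 (adjusted p = 1.26e-18), 1.53 for Mvd and 1.36 for Tm7sf2 and Dhcr7. In the fatty acid branch it was 1.03 for Acss2, 0.92 for Me1, 0.80 for Elovl6 and 0.66 for Scd1. No gene of the list was called for RNA in 1 direction in all 3 clones in the main fits. Fasn was near the threshold in KO2. There edgeR called it lower with upper quartile factors (adjusted p = 0.0149), library totals (0.0434) or a replicate block (0.0332). Its calls in KO1 and KO3 were kept in those fits. DESeq2 called no gene of the list lower in KO2.

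Footprints, which count ribosomes on the coding sequence, were lower for most of the genes in KO1 as well. In KO1, 19 of the 31 genes tested were lower, where 15.2% of 10335 genes were lower, and none was higher, where 11.7% were higher. Tm7sf2 was not tested there because its counts were too low. In KO2, 4 genes (Fdps, Mvd, Msmo1 and Sc5d) were higher and 1 (Fasn) lower, where 6.74% and 4.99% of 10370 genes were. In KO3, 7 were higher and 9 lower, where 14.9% and 15.7% of 10398 genes were. The changes of the clones differed for 27 of the 32 genes, where 59.5% of 10763 genes differed, and Lss, Tm7sf2, Fasn, Acaca and Fads2 were the genes not called. DESeq2 called fewer genes than edgeR, namely 12 (KO1), 2 (KO2) and 9 (KO3), and edgeR called fewer in KO1 without KO1 replicate 1, the deepest Ribo-seq library. The shares of all genes called in these fits are not reported here, so a lower rate of calls over all genes cannot be told apart.

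Msmo1 footprints were at 150.0 and 157 CPM in WT cells, 68.8 and 94.9 in KO1, 224 and 246 in KO2, with KO3 at 140.04 and 177. As for RNA, KO1 was below and KO2 above WT, with changes of -1.03 (adjusted p = 4.05e-11) and 0.61 (adjusted p = 1.36e-06). Srebf2 footprints, at 181 and 176 CPM in WT cells, were at 98.2 and 104 in KO1, a fall of 0.85 (SE 0.092, adjusted p = 1.56e-10). Hmgcs1 footprints were at 154 and 182 CPM in WT cells, 87.0 and 107 in KO1, 154 and 156 in KO2, with KO3 at 208 and 239, with a fall of 0.86 in KO1 and a rise of 0.41 in KO3. Mvd footprints were at 12.9 and 14.9 CPM in WT cells, 10.5 and 17.96 in KO1, 25.9 and 28.6 in KO2, with KO3 at 27.4 and 35.4. KO2 and KO3 were above WT in every library, with rises of 0.98 and 1.16. The rise in KO2 was not called by DESeq2 (adjusted p = 0.0574) or by edgeR on libraries thinned to the smallest (0.0681). In KO1 the Mvd replicates stood on either side of WT. Acss2 footprints were at 4.48 and 1.66 CPM in WT cells and 8.14 and 12.5 in KO3, a rise of 1.58 (SE 0.36, adjusted p = 0.000597). The WT values of Acss2 rest on 16 and 4 reads, and the rise was 2.58 without WT replicate 1 and 1.16 without WT replicate 2.

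Scd1 footprints fell by 0.37 in KO1 and 0.26 in KO3, and the KO1 call was lost without KO1 replicate 1 (adjusted p = 0.118). Elovl6 footprints fell by 0.76 in KO3 (SE 0.14, adjusted p = 3.25e-05), while in KO1 they were at 42.8 and 46.2 CPM against 47.3 and 48.4 in WT cells and were not called (adjusted p = 0.477). Fasn footprints were at 765 and 818 CPM in WT cells, 703 and 637 in KO1, 651 and 659 in KO2, with KO3 at 686 and 661. All 6 clone libraries were below WT, and Fasn was called lower in each clone, by 0.24, 0.27 and 0.24, with adjusted p of 0.00564, 0.00318 and 0.00162. In each clone its call was lost without WT replicate 2, with adjusted p of 0.112, 0.0916 and 0.0508, and in KO1 also without KO1 replicate 2 (0.0537). The 3 comparisons share the WT libraries. Insig1 footprints, at 12.9 and 12.8 CPM in WT cells and 9.62 and 6.27 in KO3, fell by 0.67 in KO3 (adjusted p = 0.0413), which was lost in 3 of the 4 fits that left out 1 library (adjusted p from 0.094 to 0.289).

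Over the genes tested in both assays, the RNA and footprint changes had the same sign for 29 of 31 (KO1), 26 of 32 (KO2) and 25 of 32 (KO3). Pearson's r across these genes was 0.728, 0.829 and 0.94. The genes are not independent replicates and their RNA and footprints come from the same lysates. The branch difference in footprints was -0.44 for KO1, 0.15 for KO2 and 0.27 for KO3. It was 0.0351 for KO2 without KO2 replicate 2, and with all libraries thinned to the smallest it was -0.27 for KO1 and 0.37 for KO2.

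**Figure D4:**
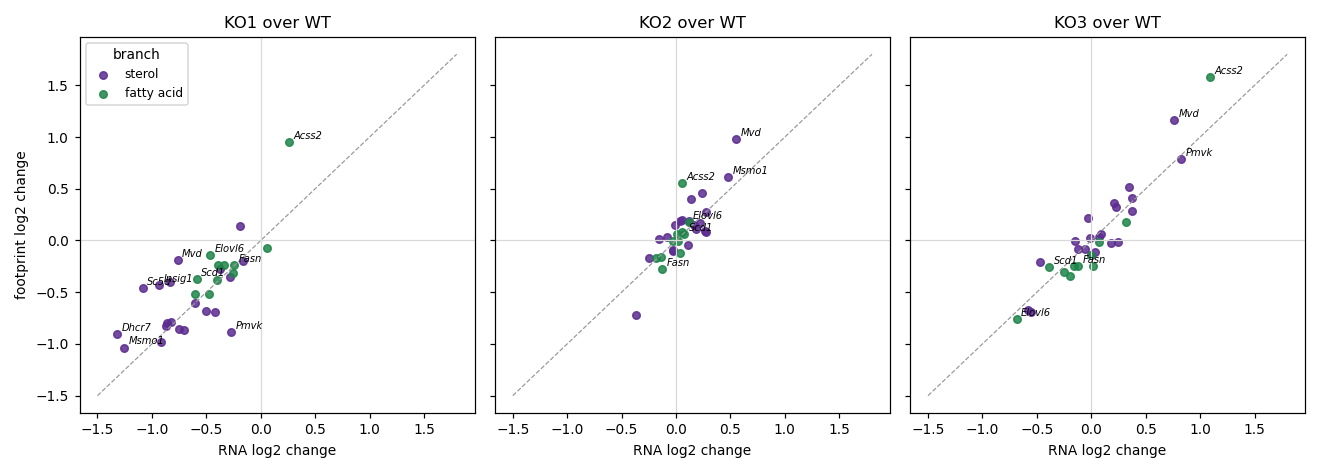
Footprint change against RNA change (log2, clone over WT) of the genes in KO1, KO2 and KO3, coloured by branch; the dashed line marks equal change. Points lie near the line in each clone; in KO1 Sc5d, Mvd and Acss2 lie above it and Pmvk below, none of them called for TE in the fit without a block.

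Without a block, TE was not called for any of the 32 genes in any clone by edgeR's interaction test or by DESeq2. These fits did not use that RNA and footprints of a replicate come from the same lysate. With the lysate or the replicate as a block, edgeR called Sc5d in KO1, as given below. Over all genes, 0.0942% of 11680 were called for KO1, 0.0173% of 11571 for KO2 and 0.104% of 11566 for KO3. At an unadjusted p under 0.05 there were 2 of the 32 genes in KO1, none in KO2 and 1 in KO3. Over all genes there were 827 of 11680, 495 of 11571 and 702 of 11566, so the shares among the 32 genes were no higher. A difference in TE between the clones was found for none of the 32 genes, where 1.03% of 11903 genes differed. The SE of a TE change in KO1 was from 0.078 for Fasn to 0.78 for Tm7sf2, so that small changes of the low genes were not detectable at this depth. The largest values in KO1 were 0.71 for Acss2 (SE 0.54), 0.63 for Sc5d (SE 0.16), 0.60 for Mvd (SE 0.32) and -0.61 for Pmvk (SE 0.30).

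Sc5d was singled out after its values were seen. Its log2 TE level, the ratio of scaled footprint to scaled RNA CPM, was 0.27 and 0.32 in WT cells, 0.82 and 1.18 in KO1, 0.44 and 0.69 in KO2, with KO3 at 0.56 and 0.57. All clone lysates were above WT. The adjusted p was 0.202 in KO1. RNA and footprints of a replicate come from 1 lysate. With the lysate as a block the TE of Sc5d rose by 0.64 in KO1 (adjusted p = 0.0114), the only call among the 32 genes in that fit. The share of all genes called in that fit is not reported here, so this call cannot be set against it. Its RNA in KO1 was at 25.7 and 25.3 CPM against 52.4 and 55.6 in WT cells, while its footprints were at 45.4 and 57.3 against 63.2 and 69.5.

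Within a line, the genes differed far more in their TE level than any of them did between lines. In WT cells, 25 of the 30 genes with at least 10 counts in all 4 WT libraries were above the median of the 9634 genes of that depth, which was -0.15. The sterol genes had a median of 0.42 and the fatty acid genes one of 0.27. Scd1 was highest, with 2.16 and 2.13 in the WT lysates, above 99.2% of genes. Idi1, Scd2 and Msmo1 followed with WT means of 1.28, 1.22 and 1.06, and the WT lysates of Idi1 and Scd2, at 1.34 and 1.23 and at 1.24 and 1.20, overlapped. At the low end stood Srebf2 with -0.90 and -0.99, above 18.4% of genes, Insig1 with -0.79 and -0.60 and Acaca with -0.60 and -0.61. Srebf1 was near the median of all genes, with -0.10 and -0.15. The transcription factor genes and Insig1 thus had fewer footprints per RNA than most enzymes of the list.

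**Figure D5:**
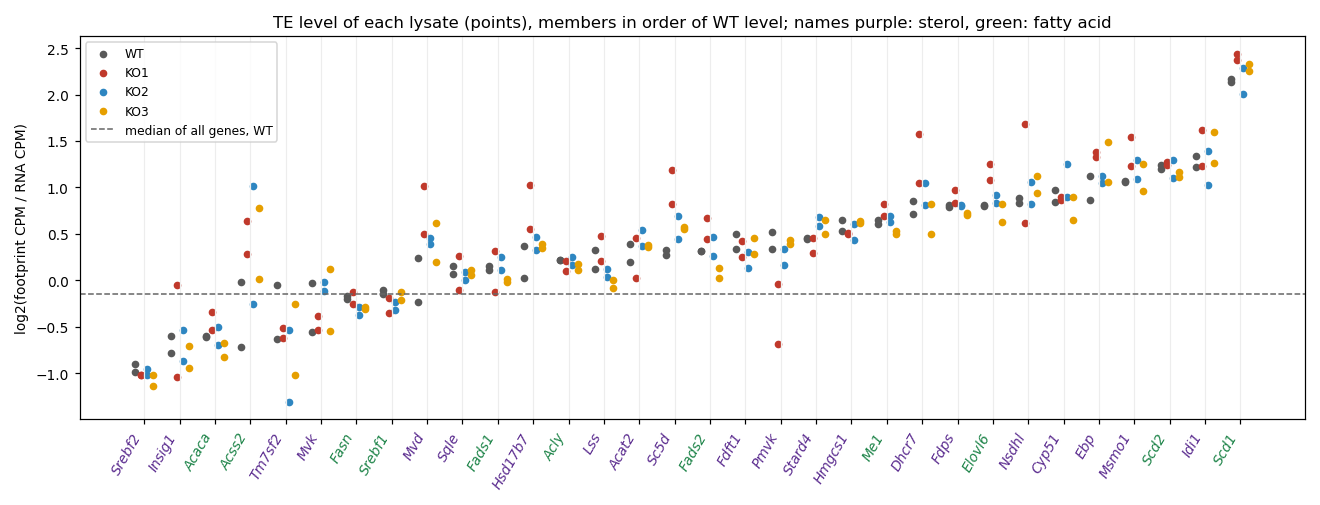
TE level (log2 of footprint CPM over RNA CPM, scaled within each assay) of the 32 genes in each of the 8 lysates, in order of the WT mean; colours mark the lines and the dashed line the median of all genes in WT cells. Scd1 is highest and Srebf2 lowest in WT cells, and for most genes the points of the clones lie around those of WT.

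Genes around the pathway were counted in lists beside the 32 genes. For RNA, the shares of all genes called lower and higher, against which these counts are to be read, were 24.6% and 22.1% for KO1, 8.86% and 11.6% for KO2, and 22.3% and 23.1% for KO3. Of 9 genes of SREBP processing and sterol sensing, 3 fell and 2 rose for RNA in KO1, with a median of -0.02, 1 rose in KO2, and 2 rose and 1 fell in KO3. These counts are near or below the shares over all genes. Scap, the escort protein of SREBP, fell by 0.50 in KO1 (SE 0.061, adjusted p = 8.77e-10), with 0.01 in KO3. Mbtps1, the site-1 protease, rose by 0.41 in KO2 and 0.27 in KO3. Aup1, a protein of lipid droplets and the endoplasmic reticulum, rose by 0.30 in KO1 and fell by 0.38 in KO3.

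Of 10 other sterol genes, 9 were tested for RNA, and 6 fell in KO1 with a median of -0.44, while 1 rose and 4 fell in KO3. The falls, at 6 of 9 and 4 of 9, are above the 24.6% and 22.3% over all genes, and the rise is below the 23.1%. Npc1, the lysosomal cholesterol exporter, fell by 0.35 in KO1 and 0.91 in KO3, and Soat1, which esterifies cholesterol, rose by 1.07 in KO3 at a low count (SE 0.39). No gene of this list was called in KO2.

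Of 23 other fatty acid genes, 19 were tested for RNA, and 12 fell and 2 rose in KO1, 1 fell in KO2, and 6 rose and 7 fell in KO3. The 12 falls of 19 in KO1 are above the 24.6% over all genes, while the 6 rises and 7 falls in KO3 are not far from 23.1% and 22.3%. Acsl1, an acyl-CoA synthetase, fell by 0.61 in KO1 and 0.55 in KO2 and rose by 1.43 in KO3 (SE 0.058, adjusted p = 2.36e-37). Gpam, the acyltransferase that opens glycerolipid synthesis, rose by 0.58 in KO1 and fell by 0.59 in KO3. Dgat2, a triglyceride synthase, fell by 1.72 in KO1 (SE 0.42) and by 0.85 in KO3. Mid1ip1, an activator of acetyl-CoA carboxylase, fell by 0.61 in KO1 and rose by 0.32 in KO3.

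Of 8 genes of the LXR receptors and of sterol efflux, 6 were tested for RNA. There were 1 rise and 2 falls in KO1, none called in KO2, and 1 rise and 3 falls in KO3. The 3 falls of 6 in KO3 are above the 22.3% over all genes, though with few genes. The other counts are not far from the shares over all genes. Nr1h2, the receptor LXR beta, fell by 0.61 in KO1 and rose by 0.34 in KO3, and Abca1, a cholesterol exporter, rose by 0.31 in KO1 and fell by 0.36 in KO3. Abcg1, another exporter, fell by 0.95 in KO3, and Mylip, a ubiquitin ligase of the LDL receptor, fell by 1.06 in KO1 at an adjusted p of 0.0321. Of 12 genes of fatty acid oxidation, 11 were tested, and 4 rose and 1 fell in KO1, 1 rose in KO2, and 3 rose and 2 fell in KO3, where the counts of KO2 and KO3 are near the shares over all genes. Cpt1a, the carnitine transferase that admits fatty acids to mitochondria, fell by 0.60 in KO1 and rose by 0.66 in KO3, and Acaa2, a mitochondrial thiolase, rose by 1.06 in KO3. Ehhadh, a peroxisomal enzyme, rose by 0.91 in KO1 (SE 0.35, adjusted p = 0.0276). No gene of these 5 lists was called for TE in any clone by edgeR without a block.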

How the data were processed

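The authors trimmed reads with fastp 0.21.0, removed noncoding RNA, aligned to mm10 with STAR 2.7.0a and counted uniquely mapped reads at the A-site on each coding sequence of GENCODE vM23, without its first and last 5 codons. The deposited values are raw counts for 67139 transcripts, with no pooling. The labels name polyA RNA and the extraction protocol rRNA depletion, which was not settled here and may affect RNA levels and TE. The 2 replicates are called biological in the study, but separate cultures are not described, so p-values measure only the spread between them. The members and lists were chosen with earlier results of these data known.

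With 1 transcript per gene, each clone was tested against WT cells in R 4.3.3 with edgeR 4.0.16 (quasi-likelihood, TMM within assay, filterByExpr), and TE as the genotype by assay interaction. Adjusted p-values are Benjamini-Hochberg over all genes tested, called under 0.05. The SE of an edgeR change is its absolute value divided by the square root of its F statistic. DESeq2 (here 1.42.0), a tool the study also used for TE in another version, other scalings, filters, blocks and thinning to the smallest library were alternatives. The tests were tested on simulated data, where changes of thinly counted genes were often missed, above all for TE, and the rule for passing was narrowed to better counted genes after that was seen. All 32 genes were named, and per-library values were given for Srebf1, Srebf2, Insig1, Hmgcs1, Sqle, Acaca, Fasn, Scd1, genes called for RNA in 1 direction in all clones or for TE, and the 4 genes per branch whose RNA change differed most between clones. Of other lists, up to 4 genes were named, those called for RNA in most clones, and some that the rule names are not reported here. Promoters and positions come from RefSeq GRCm38.p6 and GENCODE vM21, and all 32 transcripts had the same version there. The difference between replicates 1 and 2 was compared between lines over 9260 genes in RNA-seq (r from 0.004 to 0.236) and 4049 in Ribo-seq (0.098 to 0.202). All were positive but not all above 0.1, so the numbers were not taken to pair the lines, and a shared effect of replicate is not excluded. Between the RNA and Ribo libraries of 1 lysate, r was from 0.111 to 0.283 over 4014 genes.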

Additional observations from a re-analysis of the deposited data

Results flagged for a closer look

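The changes of the clones were not equal, by the test over all clones, for 30 genes in RNA and 27 in footprints, against 74.0% and 59.5% of all genes tested. The values below are the spread between the highest and the lowest log2 change among the 3 clones.

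In the sterol branch, the spread in RNA was 1.74 for Msmo1, 1.53 for Mvd, 1.36 for Tm7sf2, 1.36 for Dhcr7, 1.10 for Insig1, 1.08 for Hmgcs1, 0.97 for Srebf2 and 0.57 for Sqle. In footprints it was 1.65 for Msmo1, 1.35 for Mvd, 1.27 for Hmgcs1, 1.08 for Dhcr7, 1.02 for Srebf2, 0.82 for Insig1 and 0.52 for Sqle.

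In the fatty acid branch, the spread in RNA was 1.03 for Acss2, 0.92 for Me1, 0.80 for Elovl6, 0.66 for Scd1, 0.33 for Acaca and 0.31 for Srebf1. In footprints it was 1.03 for Acss2, 0.93 for Elovl6, 0.70 for Me1, 0.44 for Scd1 and 0.23 for Srebf1.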

How the results depend on the processing

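Of 88 calls of single genes, 53 held under every alternative run, 35 were lost in at least 1, and none changed sign. Counts of genes called kept within 1.5 times of those reported, except as follows. For RNA in KO2, 7 genes were called with upper quartile factors, 7 with a replicate block (5 higher and 2 lower, Fasn and Acaca) and 7 at an adjusted p under 0.1, and leaving out 1 library gave 2 to 6, with 2 without WT replicate 1. For footprints, DESeq2 called 12 (KO1), 2 (KO2) and 9 (KO3), thinning to the smallest library gave 2 in KO2, and leaving out 1 library gave 13 to 20, 3 to 5 and 11 to 13, with 3 in KO2 without WT replicate 1 or without KO2 replicate 2. TE in KO1 had 1 call, Sc5d, with the replicate block (adjusted p = 0.0163) and with the lysate block, and the block changed no other count by over 1.5 times. The cause of these shifts was not tested, and the shares of all genes called under these alternatives are not reported here.

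The sterol minus fatty acid difference moved when libraries were thinned, to -0.27, 0.37 and 0.38 for footprints in KO1, KO2 and KO3, to 0.0365 for TE in KO1, which reversed it, and to 0.20 for TE in KO3. Leaving out 1 library gave -0.43 to -0.29, 0.05 to 0.14 and 0.11 to 0.18 for RNA in KO1, KO2 and KO3, -0.48 to -0.31, 0.0351 to 0.20 and 0.19 to 0.39 for footprints, and -0.19 to -0.0309, -0.0372 to 0.18 and 0.0443 to 0.17 for TE. For TE in KO2 it reversed without WT replicate 2 (-0.0008) and without KO2 replicate 2 (-0.0372).

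Clones differed for 29 to 31 genes in RNA, 20 to 28 in footprints and none in TE over the alternatives. No scaling moved the median of all genes by 0.1. The replicate numbers were not taken to pair the lines, although the counts of the 32 genes took a larger share of replicate 2 than of replicate 1 in every line and assay. With 2 libraries per group and Ribo-seq totals down to 1138943 counts, small changes of the low genes Tm7sf2 and Acss2 were not detectable.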
